A study of Rattus norvegicus with 6 samples.

Results

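The neuregulin and epidermal growth factor (EGF) ligands and their ErbB receptors were followed in the rat sciatic nerve before and after a crush. The group was set by gene symbol and holds 10 of the 30957 genes listed: the ligands Nrg1, Btc, Areg, Ereg, Hbegf and Tgfa, and the receptors Egfr, Erbb2, Erbb3 and Erbb4. Each symbol matched 1 gene. 8 members passed the low-count filter together with others, 15195 genes in all. Areg and Ereg did not pass it, because they were at or near 0 in every library.

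The nerves came from 1-month-old Sprague-Dawley rats. The left sciatic nerve had been crushed in its middle with hemostatic forceps, and nerve was collected 4 days (D4 group) or 7 days (D7 group) later. The rats of the control group are normal controls in the labels, while the methods describe them as operated on in the same way without clamping. Each group held 2 rats with 1 library each, lettered a and b, of RNA from whole nerve tissue depleted of ribosomal RNA. A nerve segment holds axons, Schwann cells, fibroblasts, perineurial cells, vessels and blood-borne cells, and in such bulk tissue fewer cells of a type and less RNA per cell cannot be told apart. Axons run in the nerve, but the cell bodies of their neurons do not lie in it.

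ErbB receptors are receptor tyrosine kinases that pair on binding a ligand of the EGF family and signal through adaptor proteins to the Ras-ERK and PI3 kinase cascades. ErbB3 binds neuregulins but has little kinase activity of its own, and ErbB2 has no known ligand, so that the ErbB2-ErbB3 pair works as 1 neuregulin receptor. This pair is the receptor of Schwann cells for axonal neuregulin-1, which controls their survival, migration and myelination. EGFR binds EGF, amphiregulin, epigen and TGF-alpha, and betacellulin, HB-EGF and epiregulin bind both EGFR and ErbB4.

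The mRNA counts summed to between 18727255 and 25350886 fragments per library, and the intervals of fold changes below rest on the spread between 2 libraries per group. The tissue label held: Sox10, a transcription factor of Schwann cells, was at 75.2 to 192 FPKM (fragments per kilobase of transcript, scaled to the library total but not by TMM factors) in the 6 libraries, while Rbfox3, a marker of neuronal cell bodies, had 0 or 1 count. The 5 neuron markers, Rbfox3 among them, summed to 5.9 and 3.89 FPKM in the control group and 0.733 to 2.98 after the crush. In the control libraries, 2 and 1 of these 5 genes had at most 3 counts. Marker lists of other cells and cell states moved with the days after the crush, 5 of them given here. The summed level of 8 myelinating Schwann cell markers was 38800 and 27200 FPKM in the control libraries, 1270 and 1550 at D4, and 7460 and 4590 at D7. Repair Schwann cell markers summed to between 21.1 and 22.0 FPKM in the control group and to between 467 and 853 after the crush. Macrophage markers summed to between 71.5 and 79.2 against 471 to 875. Markers of dividing cells summed to between 6.42 and 11.5 against 117 to 206. Single genes made up much of 2 of these sums after the crush, with Ngfr at 349 to 650 FPKM and Gpnmb at 183 to 562. By the thresholds given below, 6 of 8 repair markers rose on both days. Of the 8 macrophage markers, 8 rose at D4 and 7 at D7. Of all genes tested, 11.2% were higher and 10.7% lower at D4, and 9.83% and 9.02% at D7. The 5 markers of keratinocytes and epithelium include Cdh1, a cadherin that myelinating Schwann cells also make. They summed to 107 and 93.8 FPKM in the control group and to between 8.73 and 20.9 after the crush. Of the 4 that could be tested, 3 were lower and 1 was higher on both days by the same thresholds. The part of these lists in the differences given below was not tested.

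Among the ligand genes, Btc rose from near the bottom of the order to the highest ligand at D4, while Hbegf and Tgfa, the leading ligand genes of the control nerve, fell. Among the receptor genes, Erbb3 rose above its already leading level and Erbb4 fell on both days. Egfr and Erbb2 moved by less than 2-fold, and Nrg1 gave few fragments in all 6 libraries. 5 of the 8 tested members passed the thresholds at D4, which were an adjusted p under 0.05 and a change of at least 2-fold in edgeR's quasi-likelihood test, with 2 higher and 3 lower. Of all genes tested, 21.9% passed them at D4, 11.2% higher and 10.7% lower. At D7 the same 5 members passed, again 2 higher and 3 lower, beside 18.8% of all genes, 9.83% higher and 9.02% lower. Between D7 and D4, 0 of 8 passed both thresholds in edgeR, beside 2.18% of all genes. There 3 members had an unadjusted p under 0.05, beside 3754 of the 15195 genes tested. In DESeq2 0 members passed both thresholds, beside 508 of 19852 genes. Its adjusted p was 0.00163 for Btc, 0.00615 for Tgfa and 0.00851 for Hbegf, whose changes were each under 2-fold. The D4 and D7 comparisons share their control libraries, so the 2 counts are not independent.

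**Figure D1:**
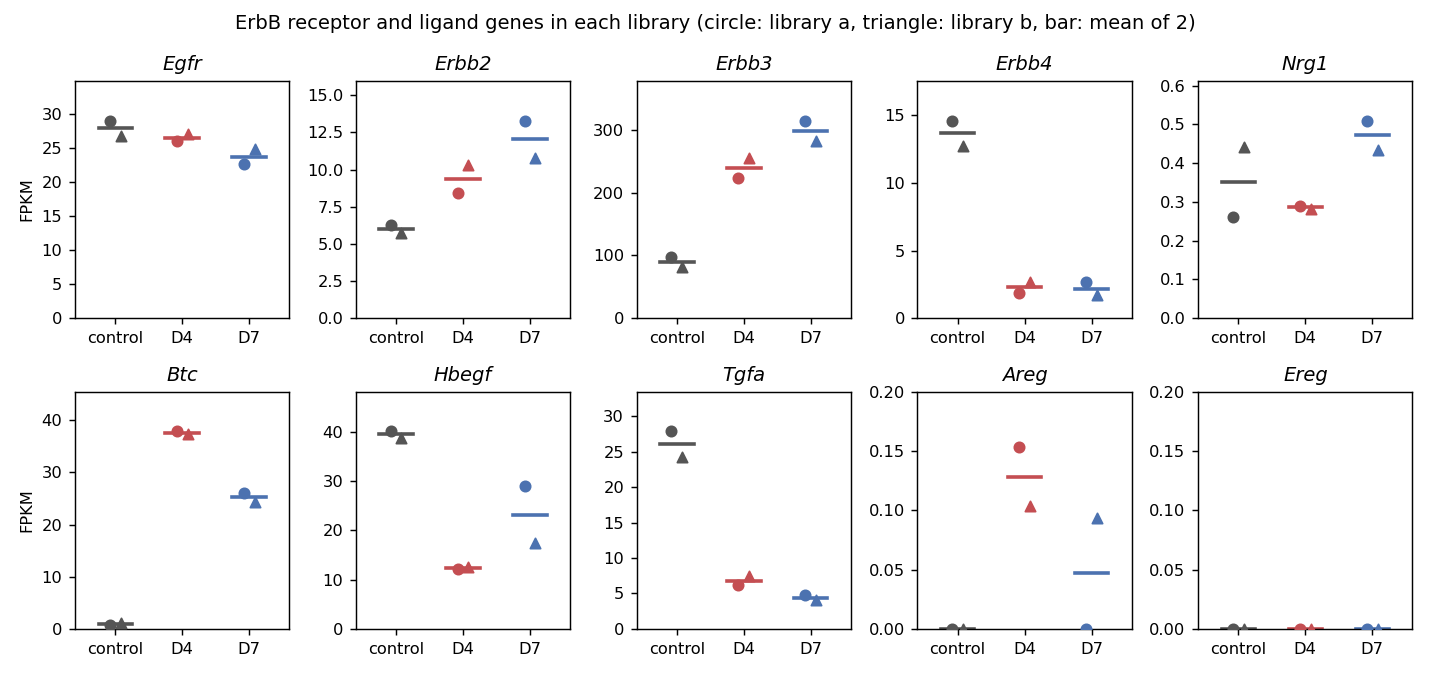
Level of each of the 10 genes in the 6 libraries, in deposited FPKM, not scaled by TMM factors, on linear axes that start at 0 and differ between panels; circles are library a, triangles library b and bars the mean of 2. Btc is under 1.2 FPKM in the control group and above 24 in the 4 libraries after the crush, Erbb4 is above 12 in the control group and under 3 after it, and Ereg is at 0 throughout.

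To place the genes that changed most, the 250 bases before the annotated start are shown for Btc, the member with the largest rise, and for Tgfa and Erbb4, the 2 members with the largest falls. They are RefSeq sequences of the rat build GRCr8, which differs from the build of the counts, printed 5′ to 3′ on the strand of the gene with the GC box, GGGCGG or its reverse complement, in capitals. The Btc window is chr14:16992418-16992667 on the plus strand, the Tgfa window chr4:120175469-120175718 on the plus strand and the Erbb4 window chr9:78045607-78045856 on the minus strand.
Btc: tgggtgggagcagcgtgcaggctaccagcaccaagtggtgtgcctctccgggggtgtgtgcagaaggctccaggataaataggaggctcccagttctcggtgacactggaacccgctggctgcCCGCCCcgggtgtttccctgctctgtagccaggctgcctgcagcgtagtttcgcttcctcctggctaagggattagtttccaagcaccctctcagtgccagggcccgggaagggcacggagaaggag
Tgfa: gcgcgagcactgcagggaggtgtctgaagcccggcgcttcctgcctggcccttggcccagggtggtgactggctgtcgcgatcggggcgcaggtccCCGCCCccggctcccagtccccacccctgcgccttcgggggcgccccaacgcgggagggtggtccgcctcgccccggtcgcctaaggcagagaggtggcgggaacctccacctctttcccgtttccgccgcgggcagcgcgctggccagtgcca
Erbb4: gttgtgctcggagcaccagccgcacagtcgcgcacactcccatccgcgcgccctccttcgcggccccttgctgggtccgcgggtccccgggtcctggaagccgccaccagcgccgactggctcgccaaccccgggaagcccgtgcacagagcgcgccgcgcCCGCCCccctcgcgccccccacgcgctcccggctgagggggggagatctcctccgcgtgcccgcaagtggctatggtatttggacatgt

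RefSeq windows matched 7 of the 10 members, and Nrg1, Ereg and Erbb3 had no entry. The Btc window had 62.8% G and C and 10 CpG dinucleotides. Those of Tgfa and Erbb4 were richer, with 74.4% and 26 CpG and with 73.6% and 31 CpG, against a median of 51.2% and 5 CpG over 33469 rat promoter windows of the same length. A GC box on either strand stood in 6 of the 7 windows and in 30.5% of all. The AP-1 letters TGANTCA stood in 0 of 7 and in 6.34% of all, and the TATA letters TATAAA in that of Areg alone and in 12.9% of all. The CRE letters TGACGTCA, in 1.59% of all windows, were also found for Areg alone. These matches describe letters in a window and not bound sites.

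Btc (ENSRNOG00000002728, 14:18231860-18272484 in the annotation of the counts) encodes betacellulin, a membrane-anchored ligand that is shed from the cell. It had 42 and 53 counts in the control libraries, 2136 and 2335 at D4, and 1289 and 1125 at D7. Per length these were 0.756 and 1.15 FPKM, 37.9 and 37.3 FPKM, and 26.1 and 24.3 FPKM. The 3 groups did not overlap, with D4 the highest. Such separation of D4 from control was seen for 76.2% of all genes tested, of D7 from control for 71.9% and of D7 from D4 for 60.6%, so that it is common with 2 libraries a group. The D4 group was 32.6-fold above control (log2 fold change 5.03, SE 0.18, 95% interval 4.58 to 5.48, adjusted p = 0.000112), and at D7 the log2 fold change was 4.45 (SE 0.18, adjusted p = 0.000201). From D4 to D7 the log2 fold change was -0.58 (adjusted p = 0.079), which passed neither threshold. In DESeq2 it was -0.62 (adjusted p = 0.00163), past the adjusted p but under 2-fold. In the log2 fold changes that left out each library or changed the scaling, Btc stayed between 4.76 and 5.32 at D4.

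Tgfa (ENSRNOG00000016182, 4:117962319-118046344) encodes transforming growth factor alpha, a ligand of EGFR. Its counts were 2826 and 2053 in the control group, 633 and 847 at D4, and 428 and 345 at D7. Both days lay below both control libraries, and both D7 libraries lay below both D4 libraries. The log2 fold change was -2.23 at D4 (SE 0.15, adjusted p = 0.000231) and -2.86 at D7 (SE 0.16, adjusted p = 0.000302). The further change from D4 to D7 was -0.62 with an adjusted p of 0.0742, short of both thresholds. In DESeq2 it was -0.66 (adjusted p = 0.00615), past the adjusted p but under 2-fold.

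Hbegf (ENSRNOG00000018646, 18:29329764-29340403) encodes heparin-binding EGF-like growth factor. It had 2077 and 1676 counts in the control group, 640 and 728 at D4, and 1337 and 751 at D7. The D4 libraries lay close together and lowest, while the D7 libraries were apart from each other, at 29.0 and 17.4 FPKM against 40.1 and 38.8 in the control group. At D4 the log2 fold change was -1.97 (SE 0.24, adjusted p = 0.00147). At D7 it was -1.06 (SE 0.23, 95% interval -1.62 to -0.49, adjusted p = 0.0159), a call that rested on single libraries. The value was -0.73 without D7 library b and so under 2-fold, it was -1.02 with an adjusted p of 0.051 without control library a, and it was -0.77 when no scaling factors were used. The rise from D4 to D7, 0.91 (adjusted p = 0.0834), passed the thresholds as 1.24 (adjusted p = 0.0109) without D7 library b and was 0.47 without D7 library a. In DESeq2 the rise from D4 to D7 was 0.87 (adjusted p = 0.00851), under 2-fold. The D4 fall of Hbegf stayed between -2.01 and -1.68 over all alternatives run, whereas its D7 value ranged from -1.46 to -0.73.

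Nrg1 (ENSRNOG00000010392, 16:63837216-64057434) encodes neuregulin-1, made by neurons and, after injury, also by Schwann cells. It had 31 and 44 counts in the control group, 35 and 38 at D4, and 54 and 43 at D7. All libraries were under 0.52 FPKM. The log2 fold change was -0.57 at D4 (95% interval -1.44 to 0.29, adjusted p = 0.233) and 0.14 at D7 (95% interval -0.71 to 0.99, adjusted p = 0.775), so that no change of Nrg1 was detectable at this depth. The intervals reach past a 2-fold fall at D4 and to nearly a 2-fold rise at D7. These counts are per gene and do not separate the isoforms of neuregulin-1.

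Areg and Ereg, which encode amphiregulin and epiregulin, were close to absent. Areg (ENSRNOG00000002754, 14:18521930-18531179) had 0 counts in both control libraries, 4 and 3 at D4, and 0 and 2 at D7. Ereg (ENSRNOG00000002771, 14:18576355-18591394) had 0 in all 6 libraries, which allows up to 3 counts in each, or 0.118 to 0.16 CPM by library (counting error only). No fold change is given for either gene. Areg and Ereg lie next to Btc on chromosome 14, followed by Epgn, the gene of epigen, and of this row of 4 ligand genes Btc alone had more than 4 counts in any library. The gene listed before Btc, apart from 1 unnamed gene at 0 counts, is Parm1, and the gene after Epgn is Mthfd2l. Their log2 fold changes were -0.29 and 0.37 at D4 and -0.07 and 0.44 at D7, none of them past the threshold.

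**Figure D2:**
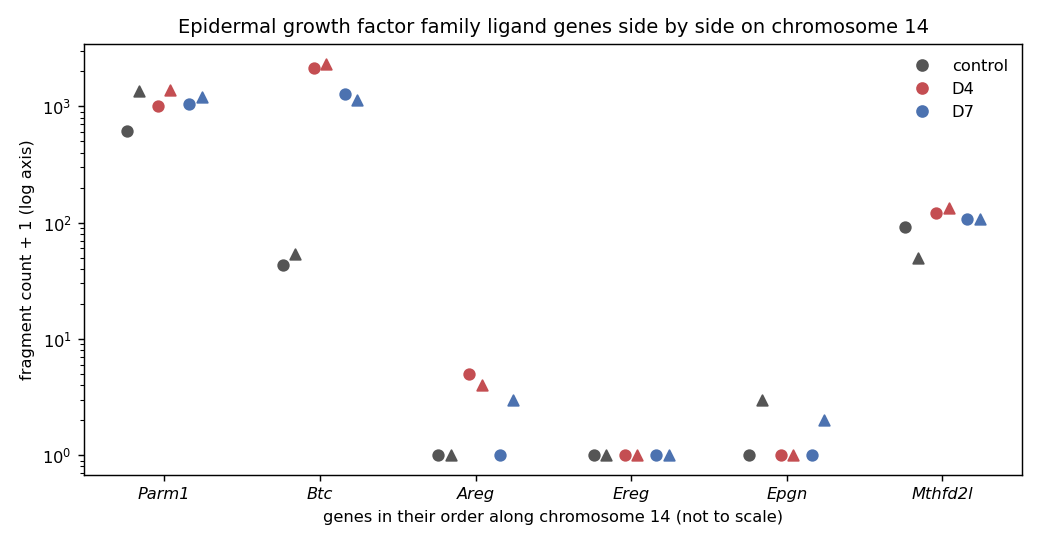
Fragment counts plus 1, on a log axis, of 6 named genes in their order along chromosome 14; circles are library a, triangles library b, and colours mark the groups. Btc stands at 42 and 53 counts in the control group and far above that in the 4 libraries after the crush, while Areg, Ereg and Epgn stay at 4 counts or fewer.

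Erbb3 (ENSRNOG00000004964, 7:2989340-3010350) was the highest member in every library. Its counts were 12936 and 9163 in the control group, 30388 and 38429 at D4, and 37416 and 31382 at D7, or 96.9 and 82.4, 224 and 255, and 315 and 282 FPKM. Control lay lowest and was well apart from both days. The rise was 2.19-fold at D4 (log2 fold change 1.13, SE 0.14, adjusted p = 0.0017), and at D7 the log2 fold change was 1.44 (SE 0.14, adjusted p = 0.00105). The D4 value sat close to the 2-fold threshold: without control library b it was just short of 1 on the log2 scale, with an adjusted p of 0.00601. Between D7 and D4 the log2 difference was 0.31 (adjusted p = 0.238). Beside this, Sox10 had log2 fold changes of 0.07 at D4 (adjusted p = 0.81) and 0.63 at D7 (adjusted p = 0.0618), neither past the threshold.

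Erbb2 (ENSRNOG00000006450, 10:86367596-86391728), the partner of Erbb3, was lower and moved less. It had 860 and 660 counts in the control group, 1177 and 1590 at D4, and 1628 and 1239 at D7. In FPKM all 4 libraries after the crush lay above the control libraries. After scaling, the log2 fold change was 0.35 at D4 (SE 0.15, 95% interval -0.03 to 0.72, adjusted p = 0.113) and 0.71 at D7 (SE 0.15, 95% interval 0.34 to 1.09, adjusted p = 0.0151), the latter past the adjusted p but under 2-fold. Scaling bears on this gene, since with no scaling factors its D7 value was 1.01 and passed both thresholds. Without the factors the median log2 fold change of all genes was 0.25 at D4 and 0.31 at D7, against -0.03 and 0.01 with them, and FPKM carry the same shift. The share of higher genes among those called was then 69.3% at D4 and 70.4% at D7, against 51.2% and 52.1%.

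Erbb4 (ENSRNOG00000014248, 9:75021790-75528644), a receptor for neuregulins and for betacellulin and HB-EGF, had the lowest fitted log2 fold change of the members on both days. It had 1249 and 907 counts in the control group, 161 and 260 at D4, and 204 and 121 at D7. The ranges of D4 and D7 overlapped, and all 4 of these libraries were far below control. The log2 fold change was -2.87 at D4 (SE 0.28, 95% interval -3.55 to -2.19, adjusted p = 0.000652) and -2.93 at D7 (SE 0.28, adjusted p = 0.000955). Between the days it was -0.06 (95% interval -0.73 to 0.62, adjusted p = 0.919). Myelinating Schwann cell markers also fell, all 8 past the thresholds at D4 and 6 of 8 at D7, beside 10.7% and 9.02% of all genes. From D4 to D7, 6 of the 8 rose past the thresholds, with a median of 2.49 over the 8. Of all genes, 2.18% passed in either direction between these days. Erbb4 did not pass in that comparison. The part of the cells with these markers in the Erbb4 values was not tested.

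Egfr (ENSRNOG00000004332, 14:99919485-100098796), the receptor for EGF, had 2709 and 2091 counts in the control group, 2469 and 2849 at D4, and 1880 and 1933 at D7. Divided by the TMM factors, its FPKM were 33.5 and 30.3 in the control group, 24.4 and 25.3 at D4, and 21.2 and 23.0 at D7, with both days below control. The deposited FPKM, without the factors, lay between 22.6 and 29.0. The log2 fold change was -0.36 at D4 (95% interval -0.60 to -0.13, adjusted p = 0.0253) and -0.53 at D7 (SE 0.10, adjusted p = 0.00827), both under 2-fold. These small differences depended on the scaling, since with no scaling factors they were -0.07 (adjusted p = 0.544) and -0.24 (adjusted p = 0.0847).

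**Figure D3:**
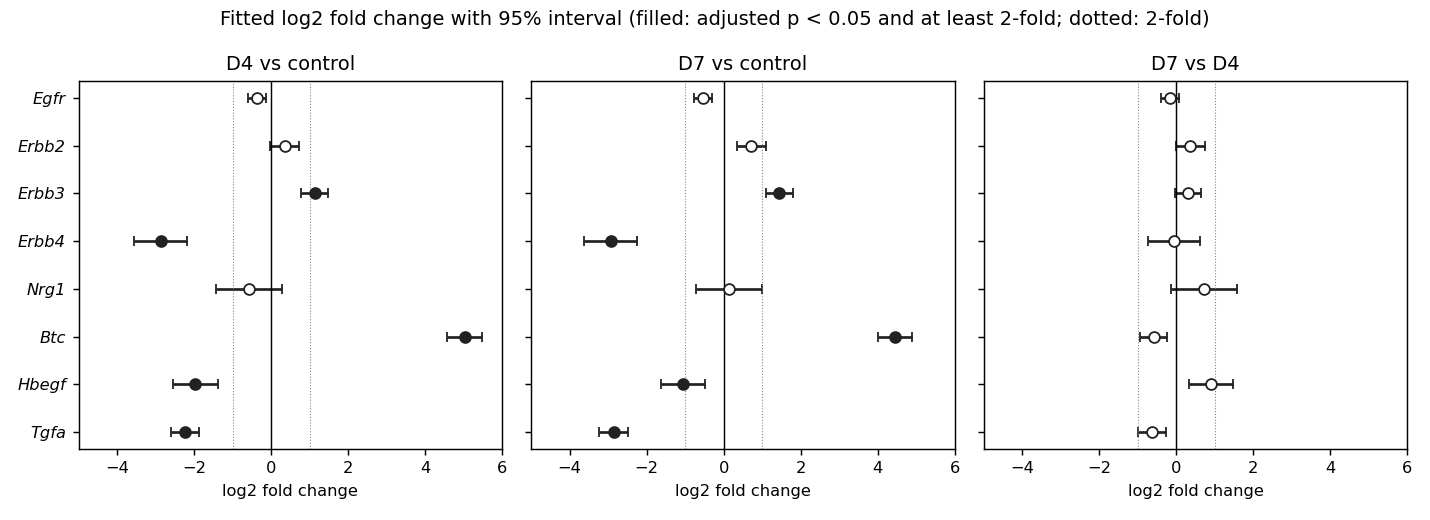
Fitted log2 fold changes of the 8 tested members with 95% intervals, for each day against control and for the 2 days against each other; filled points have an adjusted p under 0.05 and at least a 2-fold change, and dotted lines mark 2-fold. Btc stands at 5.03 and 4.45, Erbb4 at -2.87 and -2.93, and no point is filled between D7 and D4.

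Read per length, Erbb3 held rank 1, Egfr rank 3 and Nrg1 rank 8 by mean FPKM in all 3 groups, while Btc, Hbegf, Tgfa, Erbb2 and Erbb4 changed rank. In the control group Erbb3 led with a mean of 89.6 FPKM (SD 10.3, n = 2), followed by Hbegf at 39.4, Egfr at 27.9, Tgfa at 26.1, Erbb4 at 13.7, Erbb2 at 6.01, Btc at 0.951 and Nrg1 at 0.352. Egfr and Tgfa, neighbours in this order, overlapped in their ranges and the others did not. At D4 the order was Erbb3 at 240, Btc at 37.6, Egfr at 26.5, Hbegf at 12.3, Erbb2 at 9.35, Tgfa at 6.79, Erbb4 at 2.28, Nrg1 at 0.286 and Areg at 0.129, with no overlap of neighbours. At D7 Erbb3 at 299 was followed by Btc at 25.2, Egfr at 23.7 and Hbegf at 23.2, which overlapped as neighbours, and then by Erbb2 at 12.1, Tgfa at 4.42, Erbb4 at 2.19, Nrg1 at 0.472 and Areg at 0.0468.

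Erbb3 made up 66.0% and 64.5% of the summed FPKM of the 4 receptors in the control libraries, 86.1% and 86.5% at D4, and 89.1% and 88.3% at D7. The summed level itself, with each library's FPKM divided by its TMM factor, was 170 and 144 in the control group, 244 and 277 at D4 and 332 and 296 at D7. With the deposited FPKM, which lack the factor, it was 147 and 128, 260 and 295, and 354 and 320. Erbb4 went from 9.97% and 9.98% of the receptors to between 0.532% and 0.914% after the crush. Egfr took 19.7% and 21.0% in the control group and 6.39% to 9.98% after it, while Erbb2 held between 3.24% and 4.51% in all 6 libraries. Erbb2 was therefore below Erbb4 in the control group, with a ratio of 0.428 and 0.452, and above it in all 4 libraries after the crush, with ratios from 3.80 to 6.36.

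The summed level of the 6 ligands, divided by the TMM factors in the same way, was 79.9 and 73.1 in the control group, 53.1 and 53.9 at D4 and 56.7 and 42.9 at D7. With the deposited FPKM it was 69.0 and 64.7, 56.6 and 57.6, and 60.3 and 46.4. Btc was 1.10% and 1.77% of it in the control group, 66.9% and 64.8% at D4, and 43.2% and 52.5% at D7. Hbegf was 58.1% and 59.9%, then 21.5% and 21.6%, then 48.0% and 37.5%, and Tgfa was 40.5% and 37.6%, then 10.9% and 12.9%, then 7.87% and 8.83%. Btc went from below Hbegf and Tgfa in the control group to above both at D4, and at D7 neither Btc nor Hbegf led in both libraries. With 2 libraries against 2 an exact permutation test cannot give a p under 0.33, so these shares are descriptions.

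**Figure D4:**
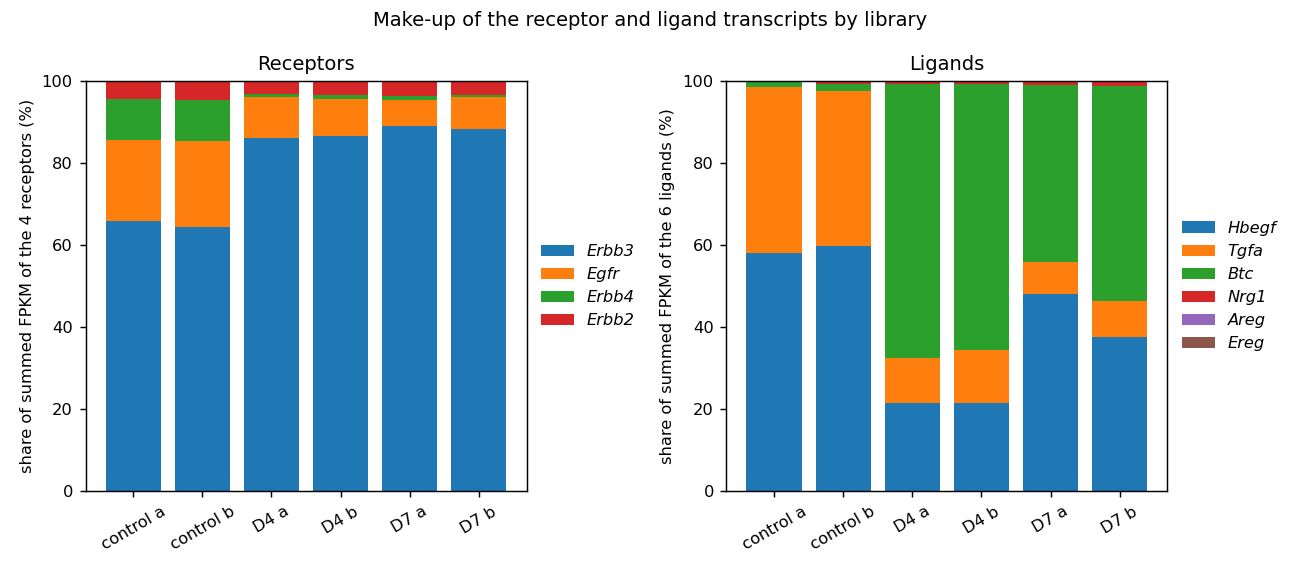
Share of the summed FPKM of the 4 receptors (left) and of the 6 ligands (right) taken by each gene, 1 stacked bar per library that adds to 100%. Erbb3 goes from 64.5% to 66.0% of the receptors in the control group to between 86.1% and 89.1% after the crush, and Btc from under 2% of the ligands to between 43.2% and 66.9%.

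The genes whose pattern was nearest to that of each called member were sought among 13326 tested genes with a mean of at least 1 FPKM, by the Euclidean distance between log2 CPM centred on each gene's mean over the 6 libraries. The nearest to Btc were Runx2, a transcription factor that is also in the repair Schwann cell list (distance 0.313), Cabp2 (0.339) and Birc5, an inhibitor of apoptosis expressed in dividing cells (0.378). Those nearest to Erbb3 were Spata13 (0.121), Ssbp4 (0.128) and Chl1, a neural cell adhesion molecule (0.184). Those nearest to Erbb4 were Aif1l (0.364), Cyb5r2 (0.391) and Ttll9 (0.488). Hbegf had Hipk4 (0.214), Abhd1 (0.287) and Myh14 (0.348), and Tgfa had LOC100362814 (0.218), Ctxn3 (0.369) and Tubb4a, a beta-tubulin (0.486). With 3 groups of 2 libraries many genes share such patterns, and these distances are descriptions only.

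Of the other 5 ligand genes of the family, 3 were tested, 1 fell at D4, beside 10.7% of all genes, and 0 passed at D7 in edgeR, beside 18.8% of all genes called in either direction. Egf had 84 and 95 counts in the control group, 47 and 56 at D4, and 64 and 88 at D7, a difference of -1.33 on the log2 scale at D4 (SE 0.30, adjusted p = 0.0139) and -0.45 at D7 (adjusted p = 0.262). Nrg4 had 72 and 76, then 26 and 20, then 3 and 30 counts. Its log2 fold changes of -2.19 and -2.35 had adjusted p-values of 0.0669 and 0.0664 in edgeR. At D7 it was the 1 gene of the 3 with an unadjusted p under 0.05 in edgeR, beside 7361 of 15195 genes. DESeq2 gave adjusted p-values of 0.0351 and 0.0246 for Nrg4 and so called it on both days. The D7 libraries of Nrg4 were far apart, and Adipoq, an adipocyte gene, stood at 10687 and 7328, then 3254 and 1729, then 49 and 3730 counts in the same libraries. The 5 adipocyte markers summed to 468 and 402 FPKM, 141 and 71.6, and 4.33 and 208, and their part in the Nrg4 values was not tested. Nrg2 had 14 to 31 counts and did not pass on either day, with log2 fold changes of 0.38 and -0.12. Nrg3 had 0 counts throughout and Epgn at most 2.

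EGF family ligands are released from their membrane-bound precursors by sheddases, and 1 of 12 tested genes of this list rose at D4 and 3 at D7, with 0 falling. These were 8.33% and 25% of the list, against 11.2% and 9.83% of all genes that were higher and 21.9% and 18.8% called in either direction. The median log2 fold change of the list was 0.31 at D4 and 0.13 at D7, against -0.03 and 0.01 over all genes. Adam12, a metalloprotease, had 282 and 296 counts in the control group, 1626 and 1692 at D4, and 961 and 851 at D7, with log2 fold changes of 2.00 (SE 0.13, adjusted p = 0.000209) and 1.43 (adjusted p = 0.000771). Adam17, the main sheddase of TGF-alpha and amphiregulin, had 2411 and 2477 counts, then 3869 and 4110, then 8197 and 6174. Its log2 fold change was 0.18 at D4 (adjusted p = 0.348) and 1.34 at D7 (SE 0.15, adjusted p = 0.00152). Rhbdf2, which escorts ADAM17 to the cell surface, was the third gene to rise at D7, at 1.10. Adam10, the sheddase of betacellulin, differed from control by -0.68 at D4 and by -0.72 at D7 (log2), under 2-fold on both days. Rhbdf2 and Adam10 were named after their values were seen.

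Of the receptor adaptors and the Ras-ERK core, 25 of 26 genes could be matched and were tested, since the symbol Grb2 fitted more than 1 identifier. 3 rose and 1 fell at D4, and 2 rose and 0 fell at D7, or 16.0% and 8.0% of the list against 21.9% and 18.8% of all genes. Shc3, an adaptor of the Shc family best known from neurons, rose from 4 and 4 counts to 31 and 44 at D4 and 64 and 86 at D7 (log2 fold changes 2.67 and 3.99, adjusted p = 0.00443 and 0.0013). Shc2, of the same family, rose from 285 and 330 to 1011 and 1286 and to 1445 and 1045 (1.37 and 1.79, adjusted p = 0.0029 and 0.00154). Gab2, a docking protein named after its values were seen, rose at D4 by 1.32. Grb7, an adaptor that binds ErbB2, fell from 57 and 56 counts to 28 and 11 at D4 (log2 fold change -2.02, SE 0.50, adjusted p = 0.0205). Shc1, the widely expressed member of the Shc family, had 0.18 and 0.06 and did not pass.

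Among 19 negative regulators of ErbB signalling, 1 rose and 1 fell at D4, and 3 rose and 2 fell at D7, or 10.5% and 26.3% of the list against 21.9% and 18.8% of all genes. Spred3, an inhibitor of Ras-ERK signalling, went from 57 and 59 counts to 434 and 500 at D4 and 308 and 311 at D7, with log2 fold changes of 2.48 (SE 0.16, adjusted p = 0.000211) and 2.20 (adjusted p = 0.000473). Spry3, a Sprouty inhibitor with few counts, rose at D7 by 2.20 (SE 0.44, adjusted p = 0.0113), from 16 and 18 to 125 and 59. Errfi1, which binds and inhibits EGFR and other ErbB kinases, fell at D7 by 1.87 on the log2 scale (SE 0.29, adjusted p = 0.00454), from 5262 and 2700 counts to 1133 and 1331. Spry4, another Sprouty gene, fell by 1.06 at D4 (adjusted p = 0.0279) and by 1.60 at D7 (adjusted p = 0.00856). Socs5 was the third gene to rise at D7, at 1.24, and was named after its values were seen. Lrig1, which promotes the degradation of ErbB receptors, had 0.08 and 0.05 and did not pass.

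Of 10 genes known to respond to ERK signalling, 4 were higher and 1 lower at D4, and 3 were higher and 1 lower at D7. Of all genes, 11.2% were higher and 10.7% lower at D4, and 9.83% and 9.02% at D7. The median log2 fold change of the list was 0.72 at D4 and 0.53 at D7, against -0.03 and 0.01 over all genes. Ccnd1, the gene of cyclin D1, went from 2053 and 2432 counts to 36095 and 44171 at D4 and 17728 and 18064 at D7 (log2 fold change 3.63 at D4, SE 0.19, adjusted p = 0.000131, and 2.77 at D7, adjusted p = 0.000381). Epha4, an ephrin receptor, rose at D4 by 1.44 (SE 0.30, adjusted p = 0.0107). Dusp6, an ERK phosphatase, rose on both days (1.11 and 1.34), and Phlda1 at D4 (1.32). Both were named after their values were seen. Etv4 and Etv5, transcription factors of the ETS family, did not pass on either day, with log2 fold changes between -0.03 and 0.52. Spry4, the gene that fell, is also in the list of negative regulators. Ccnd1 is needed in dividing cells, whose 5 markers all rose on both days, and their part in the Ccnd1 values was not tested.

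**Figure D5:**
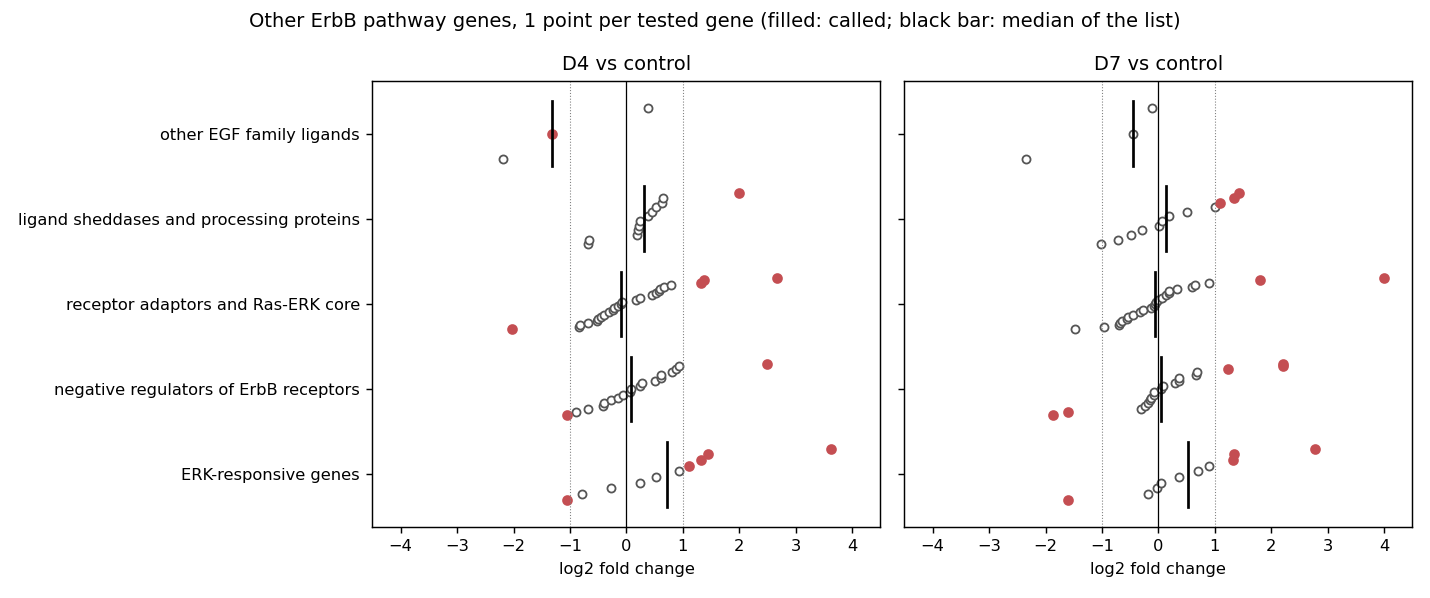
Log2 fold change of each tested gene of 5 lists of other ErbB pathway genes, at D4 (left) and D7 (right) against control; filled points passed an adjusted p of 0.05 and a 2-fold change, black bars are list medians and dotted lines mark 2-fold. Most points lie within 2-fold of control, and Shc3 at 3.99 and Ccnd1 at 3.63 are the highest points.

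At the member loci, 9 lncRNA transcripts lay inside a gene span (4), partly over it (1) or within 10 kb of it (4), and 6 could be tested. Of these, 3 were lower at D4, beside 4.87% of all 14077 lncRNAs tested, and 2 were lower at D7, beside 2.79%. Between D7 and D4, 0 passed in edgeR and in DESeq2, beside 0.249% of all in either direction, and 0 had an unadjusted p under 0.05 in edgeR. A pair lies by Erbb4. NONRATT030125.2 (9:75018405-75019552, 2238 bases from the span of Erbb4) had 255 and 197 counts in the control group, 35 and 29 at D4, and 21 and 19 at D7. It fell with log2 fold changes of -2.96 (adjusted p = 0.0044) and -3.58 (adjusted p = 0.00499), beside -2.87 and -2.93 for Erbb4. NONRATT030124.2 (9:75014045-75015057, 6733 bases away) had 86 and 75 counts, then 16 and 12, then 12 and 4, with log2 fold changes of -2.66 (adjusted p = 0.0279) and -3.41 (adjusted p = 0.0242). NONRATT010156.2 (14:100103452-100104134, 4656 bases from Egfr) had 241 and 234 counts, then 109 and 151, then 115 and 146. It fell at D4 by 1.04 on the log2 scale (adjusted p = 0.0455). At D7 its log2 fold change was close to that, -0.96 (adjusted p = 0.0719), and between D7 and D4 it was 0.08 (adjusted p = 0.93). Leaving out any 1 control or D4 library left NONRATT030125.2 as the only call at D4, and so did leaving out any 1 library other than D7 library a for D7. The use of strand in counting was not stated, and whether these transcripts are separate from the ends of the neighbouring genes was not tested.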

How the data were processed

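RNA of whole sciatic nerve was sequenced in 3 groups of 2 rats. After removal of ribosomal reads, the authors aligned reads to the rat genome of Ensembl with HISAT2 2.0.4, and StringTie 1.3.0 served for transcript assembly and fragment counting (versions from the submitters' processing notes). The deposited counts are whole fragments per gene or lncRNA transcript, not normalized. The deposited FPKM were computed by the authors. The mRNA FPKM follow each library's mRNA total with no TMM factor, so they were used to compare genes within libraries, to describe levels and to sum marker lists, and for no test. Where summed levels of receptors or ligands are set between groups, values divided by the TMM factors are given too. Coordinates are those of the files' annotation columns.

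Counts were tested with edgeR 4.0.16 in R 4.3.3: filterByExpr, TMM factors, 1 quasi-likelihood fit of 6 libraries, and Benjamini-Hochberg adjustment over all features tested. A call needed an adjusted p under 0.05 and a 2-fold change. SE are the absolute log2 fold change over the square root of F. The common biological coefficient of variation was 0.181 for mRNAs and 0.399 for lncRNAs. The procedure was tested on simulated data. p-values measure the spread between rats of 1 sequencing experiment.

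Alternatives were DESeq2 1.42.0, other scaling and filters, other thresholds, only 2 groups, a letter block and leaving out each library. The members, pathway lists and markers were chosen with earlier results of these data known. Named from each pathway list were the 2 largest rises and 2 largest falls among genes called with the groups apart, plus each other ligand, the 3 genes nearest in pattern to each called member, and called lncRNAs. Further work used Python 3.11.15, numpy 2.4.6, pandas 2.3.3 and matplotlib 3.10.9.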

Additional observations from a re-analysis of the deposited data

Results flagged for a closer look

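For 2 of the pathway genes the change at D4 differed from the change at D7 by a direct test of D7 against D4. For Adam17 the log2 fold change of D7 against D4 was 1.15 (SE 0.15, adjusted p = 0.0215), with both D7 libraries above both D4 libraries. For Dusp4, an ERK phosphatase named after its values were seen, it was 1.60 (SE 0.17, adjusted p = 0.0135): its counts were 555 and 636 in the control group, 611 and 820 at D4, and 1765 and 1714 at D7, with -0.27 at D4 (adjusted p = 0.229) and 1.33 at D7 (adjusted p = 0.00232) against control. Neither passed the thresholds without D4 library a, D4 library b or D7 library a. Groups of 2 libraries allow no test for a library that stands apart.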

How the results depend on the processing

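Of 312 log2 fold changes of members under the alternatives, 303 kept their direction and their side of the thresholds. 3 reversed, none of them past a threshold: Nrg1 at D7 was -0.19 without control library a (range over single libraries left out -0.19 to 0.54), and Erbb4 between D7 and D4 was 0.24 without D4 library b and 0.24 without D7 library b (range -0.45 to 0.24). Leaving out 1 library each gave 0 to 1 members called between D7 and D4 (1, Hbegf, without D7 library b). With a 2-fold change itself tested, 4 members passed at D4 and 4 at D7, beside 1683 and 1217 of the 15195 genes tested. With no fold threshold 6 and 7 members passed, beside 6715 and 5705 of these genes.

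For lncRNAs at member loci, leaving out 1 library gave 1 to 2 calls at D4 and 1 to 2 at D7, no low-count filter gave 1 and 1, and only transcripts that overlap a gene gave 0 and 0. For the pathway lists, with 67 genes tested, 12 genes were called at D4, 13 at D7 and 2 between D7 and D4. Of all 15195 genes tested, 3333, 2863 and 331 were called. Alternatives for these lists were added after the data were seen. No fold threshold gave 39, 31 and 6, beside 6715, 5705 and 710 of all genes. A tested 2-fold change gave 5, 6 and 0, beside 1683, 1217 and 37. DESeq2 gave 4 between D7 and D4, beside 508 of 19852 genes. Leaving out 1 library gave as few as 7 at D4 (without D4 library b) and 0 to 4 between D7 and D4, with 0 without D4 library a, D4 library b or D7 library a and 4 without D7 library b. Without D4 library a or b, 0 of all genes passed between D7 and D4 in edgeR (2054 and 2296 at an unadjusted p under 0.05). The cause of these changes was not tested.

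The letters a and b mark different rats. Same-lettered libraries did not deviate together: the correlations of their deviations were 0.01 for control and D4, 0.20 for control and D7, and -0.13 for D4 and D7. With the letter as a block, 5, 5 and 0 members were called at D4, at D7 and between them. Of all 15195 genes tested, 3281, 2827 and 248 were called with this block. With 2 rats per group, the spread of each gene leans on that of all genes, and genes with few counts, such as Nrg1 and Shc3, are measured least precisely.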
